A study of Mus musculus with 9 samples.

Results

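The genes described here are metallothioneins and zinc response genes, chosen by symbol: the metallothionein genes Mt1, Mt2 and Mt3, the transcription factor gene Mtf1 and the zinc exporter gene Slc30a1. These are 5 genes beside 22180 genes measured by a probe set of 1 gene. A probe set of 1 gene was present for 4 of the 5, and each of the 4 had a single such probe set, so all comparisons below are over Mt1, Mt2, Mt3 and Mtf1. The 2 probe sets annotated to Slc30a1 also carry the symbol of 1700034H15Rik, a long noncoding RNA gene that overlaps it in RefSeq, and their signal cannot be given to either gene. The members were proposed with the difference between 4 h and 24 h already known, so their values over time are given as a description without a test.

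Metallothioneins are small cysteine-rich proteins that bind zinc and copper and buffer the free level of these metals. Mt1 and Mt2 are made in most tissues, Mt3 is best known from neurons and astrocytes, and Mt4 from stratified epithelia. When free zinc rises, the zinc finger protein Mtf1 binds metal response elements in the promoters of Mt1, Mt2 and Slc30a1 and raises their transcription. Slc30a1 moves zinc out of the cell across the plasma membrane. Glucocorticoids, STAT3 signalling and oxidative stress are also known to raise Mt1 and Mt2.

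Expression was measured in N1E-115, an established mouse neuroblastoma line that extends neurites without serum, on 9 arrays. Cells in all 3 groups received siRNA at 80 nM, were held overnight in Neurobasal medium without serum and were then replated on laminin. The groups were control siRNA after 4 h of differentiation, control siRNA after 24 h and Hmgn5 siRNA after 24 h, with 3 arrays each. Both siRNAs were pools of several sequences, and no Hmgn5 siRNA group at 4 h was analysed here, and all groups come from this one line. Values are log2 expression per probe set after RMA, which adjusts for background, makes the distributions of the arrays alike and summarises over probes. Since probe sets differ in affinity, differences were taken between groups for 1 gene. Levels set beside those of other genes, as for cell type markers and ranks on an array, are a rough guide only. RNA was taken from whole cultures, so fewer cells of a type and less RNA per cell cannot be told apart.

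Hmgn5, a nucleosome-binding protein and the siRNA target, read 4.66 to 4.77 on the 24 h control arrays and 3.45 to 3.53 on the Hmgn5 siRNA arrays (log2; limma adjusted p = 0.00367). Leaving out control 24 h replicate 1 or Hmgn5 siRNA array 2 or 3 raised the adjusted p above the threshold, up to 0.0558. Hmgn5 exceeded 40.0% to 42.5% of probe sets on the 24 h control arrays and 13.8% to 16.1% on the Hmgn5 siRNA arrays. It was thus dim in both groups, which limits what the drop says about the depth of knockdown. Control 4 h replicate 2 stood apart, with r to other arrays down to 0.978 where pairs without it had at least 0.991. Of 15 sympathetic neuroblast markers, chosen to check the labelled line, 12 were used here. Their mean lay between 10.10 and 10.33 at 4 h, 10.38 and 10.48 with control siRNA at 24 h and 10.44 and 10.48 with Hmgn5 siRNA. Among them the catecholamine enzymes Th (0.53, limma adjusted p = 0.0188) and Dbh (0.80, adjusted p = 0.00534) rose over time. Markers of glia (6 of 8 measured), fibroblasts (5 of 5), leukocytes (5 of 5) and endothelium (4 of 4) had means between 4.33 and 5.0. The glial mean was 4.39 to 4.42 at 4 h, 4.43 to 4.55 with control siRNA at 24 h and 4.37 to 4.52 with Hmgn5 siRNA. In that list Slc1a3, an astrocyte glutamate transporter, was called higher at 24 h than at 4 h (0.33, adjusted p = 0.0481). It was dim, with control means of 3.41 and 3.74, and exceeded 17.1% of probe sets on average. The part of these cell types in the metallothionein values was not tested.

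The promoters are shown because metal response elements lie there and because Mt2 and Mt1 were lower at 24 h while Mt3 was not. Sequences are from RefSeq (GRCm38.p6), where all 5 members had a window of 300 bases, 250 of them before an annotated start. The core of the metal response element was searched as TGCACNC and TGCGCNC on both strands, and no 2 matches in the members overlapped. The 250 bases before the annotated start of Mt2, chr8:94172368-94172617 on the plus strand, are given with the matches in capitals.

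Mt2 promoter: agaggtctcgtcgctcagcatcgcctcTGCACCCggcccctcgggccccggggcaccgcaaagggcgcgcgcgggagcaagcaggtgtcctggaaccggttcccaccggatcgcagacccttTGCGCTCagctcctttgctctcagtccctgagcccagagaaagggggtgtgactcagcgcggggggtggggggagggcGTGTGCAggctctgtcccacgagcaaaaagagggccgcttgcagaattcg

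These matches begin at positions -223, -128 and -50 relative to the start, the last of them on the minus strand. With 1 more match at position 5, the Mt2 window held 4. Of 27025 genes with a window, 0.503% held at least 4 matches, 2.0% at least 3 and 25.6% at least 1. For comparison, the matches of Mt1, Mt3 and Slc30a1 are given as 29 bases each on the plus strand, again with the match in capitals.

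Mt1, chr8:94179055-94179083: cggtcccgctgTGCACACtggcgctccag
Mt1, chr8:94179080-94179108: ccagggagctcTGCACTCcgcccgaaaag
Mt1, chr8:94179098-94179126: cgcccgaaaagTGCGCTCggctctgccaa
Mt3, chr8:94152623-94152651: cgggacagcagTGCACACacacggagagc
Slc30a1, chr1:191906727-191906755: acgggggttccGAGTGCAaagcaaagttt
Slc30a1, chr1:191906800-191906828: gcctccgggccGAGCGCAgtcgccgcgga

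The Mt1 window thus held 3 matches, the Slc30a1 window 2, the Mt3 window 1, which lies after the start, and the Mtf1 window 0. The windows of Mt1 and Slc30a1 are set on starts 206 and 84 bases after the first base of the gene in the same annotation. Their counts thus cover stretches unlike those of the other members, and which start these cells use was not measured. A match is a stretch of letters and not a measured binding site. Over the 107 measured genes with 4 or more matches, the median log2 difference between 24 h and 4 h was 0.043, against 0.016 over the 11957 with none. It was 0.015 over the 3522 genes with 1 match, 0.025 over the 1086 with 2 and 0.017 over the 318 with 3. Called lower over time were 1.98% of genes with no match, 2.81% with 1 and 3.04% with 2. With 3 matches the share was 1.89% and with 4 or more 0.935%, or 1 gene. The bins include the members, with Mt2 among the 107 genes and Mt1 among the 318. The shares were not tested, and nothing is read from them.

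Mt2 had by far the lowest 24 h value relative to 4 h of the members. In control cells it read 9.97, 10.09 and 9.98 at 4 h and 8.08, 8.17 and 8.38 at 24 h (log2). With Hmgn5 siRNA at 24 h it read 7.73, 7.84 and 7.89. No 2 of the 3 groups overlapped, and the order was 4 h control, 24 h control and 24 h Hmgn5 siRNA. The difference between the 24 h groups was not called in the test given below. The group means were 10.02 ± 0.06, 8.21 ± 0.15 and 7.82 ± 0.08 (SD, n = 3 each). The signal at 24 h in control cells was 28.6% of that at 4 h, a log2 difference of -1.80 with SE 0.08. This was the most negative of all 22180 differences between the times. On the arrays, Mt2 exceeded 94.4% to 95.1% of probe sets at 4 h, 81.2% to 84.0% with control siRNA at 24 h and 78.0% to 79.9% with Hmgn5 siRNA. Control 4 h replicate 2, which stood apart in other genes, gave the highest Mt2 value of its group, and without it the difference was -1.77.

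Mt1 was lower at 24 h as well, by a smaller amount. It read 6.60, 6.35 and 6.77 with control siRNA at 4 h, 6.0, 6.07 and 6.24 with control siRNA at 24 h and 6.13, 6.24 and 6.17 with Hmgn5 siRNA at 24 h. All 4 h arrays lay above all 24 h arrays of either siRNA, while the 24 h groups overlapped. The means were 6.57 ± 0.21, 6.10 ± 0.12 and 6.18 ± 0.05 (SD, n = 3 each). The log2 difference over time was -0.47 with SE 0.11, which leaves 72.0% of the 4 h signal. Its lowest 4 h value was on control 4 h replicate 2, without which the difference was -0.58. Metallothionein genes are alike in sequence, and how far the Mt1 and Mt2 probe sets share signal was not measured.

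Mt3, the brain form, did not share this pattern. It read 7.38, 7.22 and 7.27 at 4 h, 7.30, 7.55 and 7.38 with control siRNA at 24 h and 7.43, 7.61 and 7.36 with Hmgn5 siRNA. Every pair of groups overlapped, with means of 7.29 ± 0.08, 7.41 ± 0.13 and 7.46 ± 0.13 (SD, n = 3 each). The difference between the times was 0.12 with SE 0.09. Mt4, which is no member but lies beside Mt3, read 3.66 to 4.35 over the 9 arrays and exceeded only 18.3% to 34.1% of probe sets. At 24 h it was 0.08 above 4 h and not called (SE 0.18, limma adjusted p = 0.873).

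Mtf1, the zinc sensor and activator of the metallothionein genes, was nearly level. Its values were 6.41, 6.35 and 6.46 at 4 h, 6.40, 6.38 and 6.29 with control siRNA at 24 h and 6.40, 6.49 and 6.40 with Hmgn5 siRNA. The 3 groups overlapped, with means of 6.41 ± 0.06, 6.36 ± 0.06 and 6.43 ± 0.05 (SD, n = 3 each). The difference over time was -0.05 with SE 0.06. A further probe set carries both Mtf1 and the overlapping gene 1110065P20Rik and gave 8.57 ± 0.23, 8.73 ± 0.03 and 8.74 ± 0.04 in the same order. Its low 4 h value of 8.31 was that of control 4 h replicate 2.

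For Slc30a1 only the probe sets shared with 1700034H15Rik can be described. The brighter read 9.62, 9.28 and 9.64 with control siRNA at 4 h, 9.37, 9.32 and 9.48 at 24 h and 9.34, 9.34 and 9.47 with Hmgn5 siRNA. On it 2 of the 4 h arrays lay above all 24 h arrays, and control 4 h replicate 2 lay below them. The dimmer had group means of 6.11 ± 0.15, 6.14 ± 0.20 and 6.15 ± 0.04 (SD, n = 3 each).

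**Figure D1:**
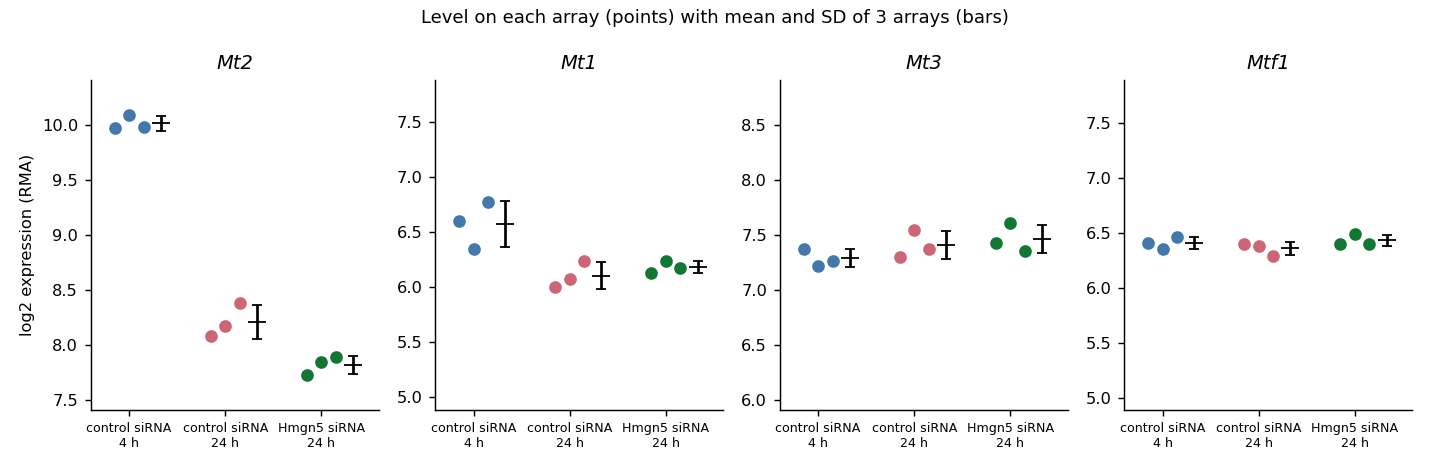
Log2 expression of Mt2, Mt1, Mt3 and Mtf1 on each of the 9 arrays (points, y axis spanning 3 log2 units in each panel), by siRNA and time, with the mean and SD of each group of 3 arrays beside them. Mt2 has group means of 10.02, 8.21 and 7.82 without overlap, and its difference between the 24 h groups was not called. Mt1 is higher at 4 h than in both 24 h groups, and the groups of Mt3 and of Mtf1 overlap.

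Of the 4 measured members, 2 had lower values on all 24 h control arrays than on all 4 h arrays, Mt1 and Mt2, and 2 had overlapping groups. Over all genes 9.98% were lower without overlap in this comparison, 11.3% were higher, and 21.3% did either. It was the comparison in view when the members were chosen, so nothing is read from the count. The members' median difference was -0.26, beside 0.016 over all genes.

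Whether lowering Hmgn5 changes these genes was tested at 24 h, and none of the 4 passed. The test shares its 24 h control arrays with the comparison over time, which was known when the members were chosen. Its p-values and intervals are therefore not independent of that choice. At an adjusted p under 0.05, 0.0135% of all genes were called in this comparison (3 of 22180), 0.00451% as lower and 0.00902% as higher, and 1164 genes had an unadjusted p under 0.05. Mt2 stood closest, at 76.5% of the control signal, with a log2 difference of -0.39 and SE 0.08 (limma unadjusted p = 0.00117, adjusted p = 0.456, 95% interval -0.58 to -0.20). All 3 Hmgn5 siRNA arrays lay below all 3 controls, which held for 5.62% of all genes, while 6.65% were higher without overlap and 12.3% did either. Its adjusted p lay between 0.144 and 0.906 over the alternatives run, and 70 genes had a more negative difference. A two-sided exact permutation test gave p = 0.1, and 3 against 3 arrays cannot give less.

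The other members were further from the threshold. Mt1 differed by 0.08 between the siRNAs (SE 0.11, 95% interval -0.16 to 0.32, limma adjusted p = 0.999), with overlapping groups. Mt3 differed by 0.05 (SE 0.09, interval -0.15 to 0.25, adjusted p = 0.999) and Mtf1 by 0.07 (SE 0.06, interval -0.07 to 0.21, adjusted p = 0.992). For these 3 genes the intervals allow changes of up to 0.32 upward and 0.16 downward on the log2 scale. Mt4 gave -0.16 (SE 0.18, adjusted p = 0.999), with 3.66 on Hmgn5 siRNA replicate 2 and 4.35 on replicate 3.

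Hmgn5 siRNA arrays at 24 h were also set against the 4 h controls, a comparison in which siRNA and time differ together and whose member values are a description. Mt2 was lower by 2.19 on the log2 scale, at 21.9% of the 4 h signal, again the most negative of all 22180 differences. The Mt1 signal was 76.2% of that at 4 h, a difference of -0.39. Mt3 and Mtf1 differed by 0.17 and 0.02. Without overlap 2 of the 4 were lower, Mt1 and Mt2, beside 8.59% of all genes lower, 10.3% higher and 18.9% either, and nothing is read from that count. This comparison shares its 4 h arrays with the comparison over time and its Hmgn5 siRNA arrays with that of knockdown.

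**Figure D2:**
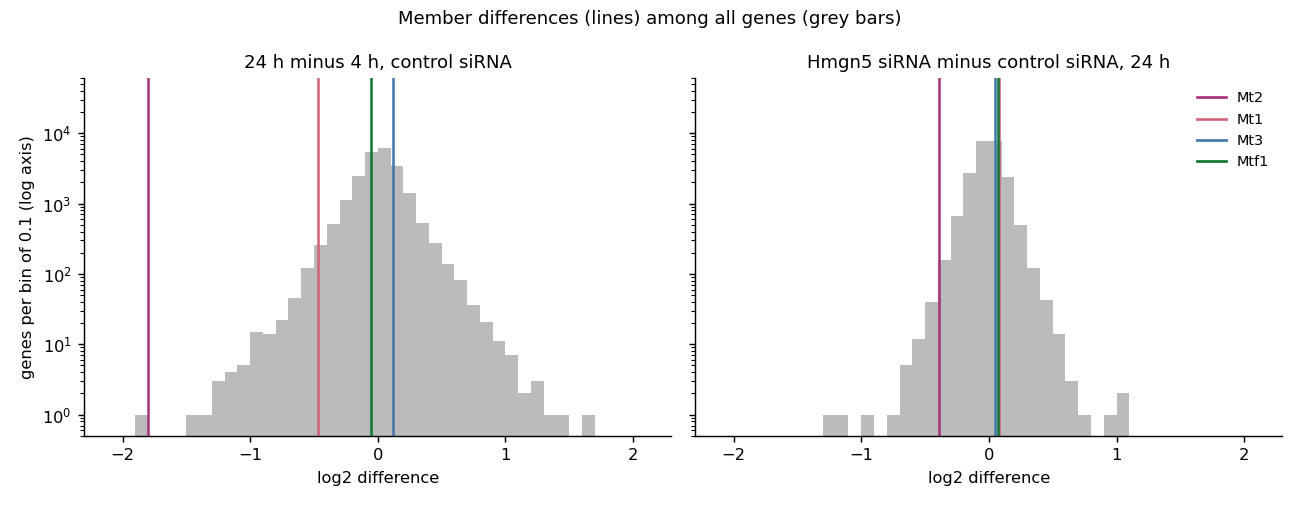
Differences of Mt2, Mt1, Mt3 and Mtf1 (coloured lines) on the log2 x axis among all 22180 genes, as grey bars of 0.1 width with the number of genes on a log y axis, over time in control cells (left) and at knockdown (right). Mt2 at -1.80 is at the left end of the distribution over time, and at knockdown it lies at -0.39 while the other members lie between 0.05 and 0.08.

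Mt4, Mt3, Mt2 and Mt1 are neighbours on chromosome 8, and the genes on either side were read to see how far the lower values reach. Of 10 measured neighbours, 5 a side in RefSeq order, 2 fell from 4 h to 24 h under control siRNA and none rose, where 2.17% of all genes were called lower. Ogfod1, a prolyl hydroxylase of the ribosome, fell by 0.33 (SE 0.06, limma adjusted p = 0.0241), and Herpud1, a gene of endoplasmic reticulum stress, fell by 0.48 (SE 0.06, adjusted p = 0.00418). Ogfod1 no longer passed when control 24 h replicate 1 or 2 or control 4 h replicate 1 or 3 was dropped (adjusted p up to 0.0775), with only the 2 groups compared (0.0848) or with median centring (0.0683). Bbs2 and Nup93, the nearest measured gene on each side, gave 0.11 and 0.03 and did not pass. At knockdown the 10 neighbours lay between -0.08 and 0.11 and none passed.

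**Figure D3:**
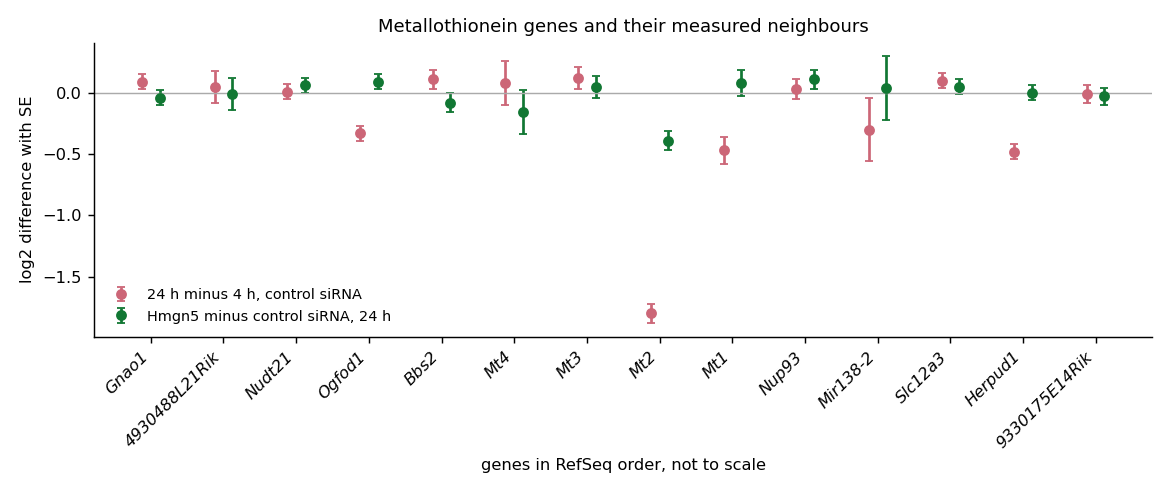
Log2 differences with SE (y axis) for the 4 metallothionein genes and the 5 nearest measured genes on each side, in RefSeq gene order and not to scale, over time in control cells (red) and at knockdown (green). Mt2 at -1.80 and Mt1 at -0.47 are the lowest points with Herpud1 at -0.48, while Mt3, Mt4, Bbs2 and Nup93 lie near 0.

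Other genes of metal handling and of the pathways that act on metallothioneins were read from 9 lists, Mt4 being one of them. Of their 101 genes 93 were measured. Between 4 h and 24 h in control cells 9 of the 93 fell and 3 rose, 12.9% in all where 4.34% of all genes were called. The lists were written with earlier results of these arrays known, so nothing is read from this share. Over all genes 481 rose and 482 fell, or 477 and 309 with each array centred on its median. Whether called or not, 54.9% of all genes were above 0 over time and 49.2% at knockdown. Without control 24 h replicate 1 or 2 there were 5 or 3 falls, and 1 rise was called when any single 24 h control array or control 4 h replicate 1 was dropped. With only the 2 groups compared, 8 of the 12 calls missed the threshold (adjusted p 0.0508 to 0.138), and those of Gclc, Hmox1, Lcn2 and Pgf held. With median centring Il6st (0.0589), Me1 (0.0755) and Slc25a28 (0.104) missed it. At knockdown 0 of 93 passed in limma's test, with 10 at an unadjusted p under 0.05. The 24 h control arrays enter the comparisons over time and at knockdown with opposite signs. Their spread alone can give opposite differences, so nothing is read from the counts of signs at knockdown.

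Zinc exporters of the Slc30a family were below 0 over time in all 8 measured (median -0.14, beside 0.016 for all genes), and 1 fell. Slc30a7, which loads zinc into the Golgi, fell from 8.09 ± 0.17 to 7.55 ± 0.10 (SD, n = 3), by 0.54 with SE 0.10 (limma adjusted p = 0.0155). It missed the threshold when control 24 h replicate 2 or 3 was dropped (up to 0.0642). Slc30a4, an exporter of endosomes, gave -0.25 and just missed the threshold (adjusted p = 0.0533). Slc30a5 of the early secretory pathway gave -0.16 and the vesicular exporter Slc30a2 -0.34, and neither passed. At knockdown all 8 were at or above 0 with a median of 0.04, led by Slc30a7 (0.18, adjusted p = 0.979). As the 24 h control arrays are shared, nothing is read from this change of sign.

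Zinc importers of the Slc39a family were not called in either comparison. Of 14 measured, 9 were above 0 over time with a median of 0.03. Slc39a10, an importer of the plasma membrane reported to be repressed by Mtf1, gave 0.28 (SE 0.09, adjusted p = 0.144). Slc39a11 (0.11), Slc39a8 (0.11) and Slc39a1 (0.27) followed, the last at -0.00668 without control 4 h replicate 2. At knockdown 10 of the 14 were below 0 (median -0.03), with Slc39a4, the importer defective in acrodermatitis enteropathica, at -0.27 (adjusted p = 0.975) and Slc39a5 at -0.13.

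Of 7 other genes reported as Mtf1 targets, 2 fell and 1 rose over time. Gclc, the catalytic subunit of glutathione synthesis, fell from 10.51 ± 0.04 to 10.03 ± 0.11, by 0.48 with SE 0.07 (limma adjusted p = 0.00835). The stress-responsive gene Ndrg1 fell by 0.34 (SE 0.05, adjusted p = 0.0114), a call lost without control 24 h replicate 2 (0.0539). A second, dimmer probe set of Ndrg1 gave 0.06, and the mean of both did not pass (-0.14, adjusted p = 0.351). Pgf, an angiogenic factor of the VEGF family, went the other way and rose by 1.22 (SE 0.13, adjusted p = 0.00209). Selenow, a selenoprotein, gave -0.33 and did not pass (adjusted p = 0.0805). This list was written with the Pgf and Mt2 results of these arrays known.

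Copper handling genes, which share metallothionein as a ligand store, had 8 of 10 measured members above 0 over time and a median of 0.19, and none passed. The copper importer Slc31a1 gave 0.26, the copper-pumping ATPase Atp7a 0.23, the copper-zinc superoxide dismutase Sod1 0.17 and the cytochrome oxidase assembly factor Sco1 -0.23 (adjusted p from 0.165 to 0.202). Of 12 iron genes 2 fell and none rose. These were the mitochondrial iron importers Slc25a37 (-0.51, SE 0.10, adjusted p = 0.0212) and Slc25a28 (-0.42, SE 0.10, adjusted p = 0.0412). Slc25a37 missed the threshold when any single 24 h control array or control 4 h replicate 1 was dropped (adjusted p up to 0.0874). Slc25a28 missed it when any array other than control 4 h replicate 2 was dropped (up to 0.13). Fbxl5, an iron-sensing ubiquitin ligase subunit, gave -0.32 (adjusted p = 0.0514), and the ferritin gene Fth1 0.20 (adjusted p = 0.115).

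NRF2 and glutathione genes, which answer oxidative and heavy metal stress as metallothioneins do, had 3 falls and 1 rise among 18 measured. Hmox1, the inducible haem oxygenase, fell from 9.39 ± 0.23 to 8.52 ± 0.14, by 0.87 with SE 0.11 (limma adjusted p = 0.00443). Gclc fell as given above, and Gclm, its regulatory partner, fell by 0.39 (SE 0.07, adjusted p = 0.0179), a call lost without control 24 h replicate 1 or 2 (up to 0.0744). The NADPH-producing malic enzyme gene Me1 rose by 0.30 (adjusted p = 0.0491), which held only when control 4 h replicate 3 was the array dropped (otherwise up to 0.15). At knockdown 17 of the 18 were above 0 with a median of 0.10, beside 49.2% of all genes above 0, and none passed. Nqo1, a quinone reductase, gave 0.38 (SE 0.08, adjusted p = 0.456), Hmox1 0.34 (adjusted p = 0.846), the factor gene Nfe2l2 0.19 and Gclm 0.18.

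Of 14 genes of the glucocorticoid receptor and its response, 1 rose over time and none fell. Dusp1, a MAP kinase phosphatase that growth factors also induce, rose from 8.23 ± 0.13 to 9.07 ± 0.30, by 0.85 with SE 0.17 (limma adjusted p = 0.0252). It missed the threshold when any single 24 h control array or control 4 h replicate 1 or 2 was dropped (up to 0.0737). Per1 (0.13) and Zbtb16 (0.16, or 0.08 without control 4 h replicate 2) did not pass. Ddit4, a stress-induced mTOR inhibitor, gave 0.57 and did not pass, with 8.66 on control 4 h replicate 2 against 9.88 and 9.74 on the other 4 h arrays. Without that array it gave 0.19. Of 11 STAT3 and gp130 genes 2 fell. Lcn2, the iron-siderophore binder, fell by 1.13 (SE 0.10, adjusted p = 0.000626), and the gp130 receptor gene Il6st by 0.33 (SE 0.06, adjusted p = 0.0175), which was lost without control 24 h replicate 1 or 2 or control 4 h replicate 3 (up to 0.0727). Stat3 (0.24) and Bcl3 (0.19) did not pass. At knockdown the largest values in both lists were those of Sgk1 (0.51, adjusted p = 0.846) and Lcn2 (0.51, adjusted p = 0.337), and neither passed.

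**Figure D4:**
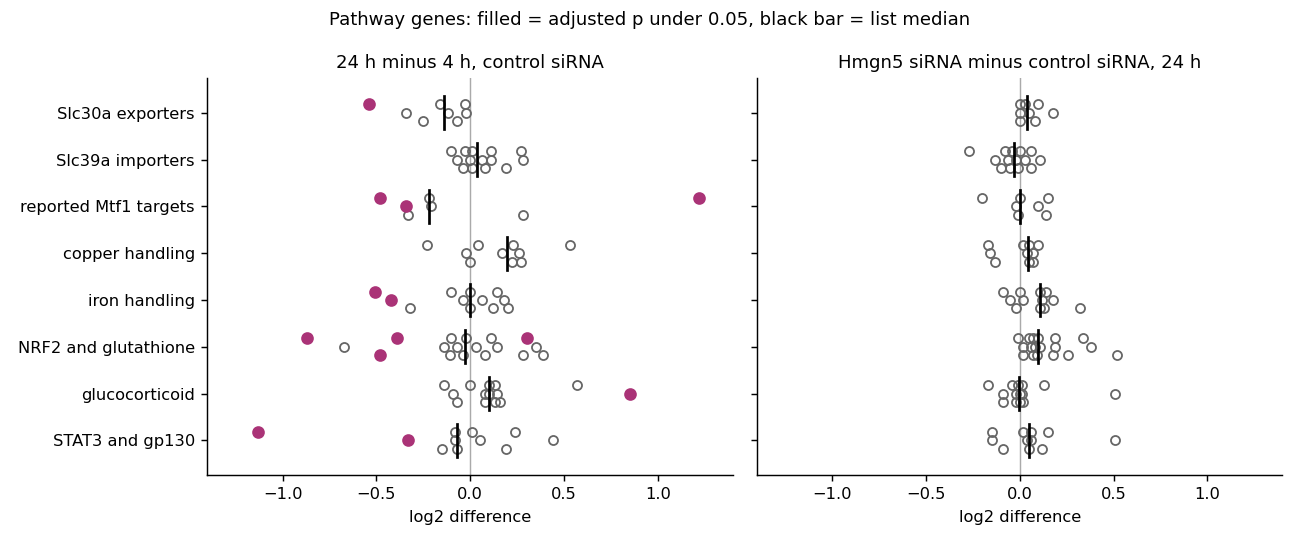
Log2 differences (x axis) of the measured genes in 8 pathway lists (rows) over time in control cells (left) and at knockdown (right). Filled points passed an adjusted p under 0.05, open points did not, and black bars are list medians, with Gclc and Slc39a10 drawn in both of their lists. Over time 9 genes fell and 3 rose, all exporters lay below 0, and at knockdown no point is filled.

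The genes whose pattern was most like that of Mt2 were ranked by Pearson's r over the 9 arrays, among 583 genes with group means at least 0.5 log2 apart. Madcam1, an addressin (0.985), Faim2, a neuronal inhibitor of apoptosis (0.984), Spint1, a protease inhibitor (0.98), Tmem141 (0.97) and Ddx31, a nucleolar helicase (0.967), came first. The microtubule-associated gene Dcx (0.963), the angiotensin receptor gene Agtr2 (0.954), the coat protein gene Sec24d (0.953), the protease gene Ctsl (0.952) and the transcription inhibitor gene Hexim1 (0.951) completed the 10. Among members, r with Mt2 was 0.831 for Mt1, -0.025 for Mtf1 and -0.609 for Mt3. The points share the step between 4 h and 24 h, which sets most of r. Their differences over time lay between -0.99 for Dcx and -0.41 for Hexim1.

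For Mt1 the first genes were Ctsl (0.955), the mitochondrial tRNA synthetase gene Mars2 (0.954), the transaminase gene Gpt2 (0.954), Lurap1l (0.938) and the haem exporter gene Flvcr1 (0.906). Trmt61a (0.906), Ttc26 (0.904), Cdsn (0.904), Hmox1 (0.9) and Iqcf5 (0.897) followed, over 584 genes. Ctsl was the gene common to both sets of 10. The ranking used the Hmgn5 siRNA arrays as well, so it bears on the signs of these genes at knockdown, and nothing is read from those.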

How the data were processed

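Total RNA of 9 N1E-115 samples was measured on Affymetrix whole-transcript arrays, 1 per sample. Per the submitters' processing notes, the authors used RMA in oligo (versions not given in the sources used here), so the deposited values are log2 expression. They ranged from 2.13 to 13.87 over 41345 probe sets, with array medians of 5.16 to 5.30. Of the probe sets, 23521 had 1 gene symbol, 1814 several and 16010 none. Genes with several probe sets (1082) were represented by the brightest, which left 22180 genes.

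Groups came from the sample titles. limma 3.58.1 in R 4.3.3 (lmFit, eBayes) was fitted to all 9 arrays with group means as the model, with 6 residual and 3.55 prior degrees of freedom and Benjamini-Hochberg adjustment over all genes; calls used 0.05. No label states separate cultures for the samples of a group, so the p-values reflect only the spread among these samples. That spread could be technical, and precision is limited by having 3 arrays per group. Members and the lists were chosen with earlier results of these data known. Named are the members, Hmgn5, Mt4, up to 4 genes of smallest p per list and comparison, neighbours of the metallothionein genes and the 10 genes most like Mt2 and Mt1 over at least 0.5 log2. Clone, predicted-gene, olfactory and vomeronasal receptor, microRNA and small nucleolar RNA symbols were left out of the last. Replicate numbers were not used as pairs, since no label ties them. Of the same-numbered pairs, only control 24 h with Hmgn5 siRNA for replicates 1 (0.184) and 3 (0.285) had r of deviations over 0.1. All 9 such pairs had positive r (0.009 to 0.285), so a shared structure is possible and a replicate block was run as an alternative. In simulated knockdown data over 22180 genes, 94% of genes changed by 1 log2 unit and 99% of those changed by 2 were recovered. Noise was drawn independently for each array, and 200 genes were changed. Smaller changes were not simulated, so these shares do not cover differences such as that of Mt2 at knockdown. The alternatives were a replicate block, 2 groups only, array weights, eBayes with trend and robust options, a filter on dim genes, cyclic loess, median centring, the mean of probe sets and leaving out each array.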

Additional observations from a re-analysis of the deposited data

How the results depend on the processing

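The Mt2 and Mt1 differences over time kept their direction under all 8 alternatives and with each array left out (-1.89 to -1.74 and -0.59 to -0.38). The Mt2 difference at knockdown stayed below 0 and uncalled (-0.45 to -0.30). Mt3 at knockdown moved between -0.02 and 0.12 with 1 array left out, being -0.00139 without control 24 h replicate 1 and -0.019 without Hmgn5 siRNA replicate 2. Other values that changed sign were Mt4 over time (-0.022 without control 24 h replicate 2, -0.0072 without control 4 h replicate 3, 0.21 at most), Slc39a1 over time (-0.00668 without control 4 h replicate 2, 0.42 at most) and Dusp1 at knockdown (-0.0295 without Hmgn5 siRNA replicate 3, 0.31 at most), none of them called. Mtf1 between Hmgn5 siRNA at 24 h and control at 4 h was -0.0040 with array weights and at lowest -0.0058 with 1 array left out, beside 0.02.

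Counts moved most. With only the 2 groups compared, which leaves fewer arrays for the spread, 161 genes rose and 119 fell over time, against 481 and 482, and 1 and 3 pathway genes were called against 3 and 9. At knockdown 1 gene rose against 2 in that fit. Array weights gave 807 rises and 878 falls over time and 6 rises at knockdown, and the trend and robust prior 4 rises at knockdown. Median centring gave 309 falls over time, and removing the dimmest 33% of genes, Hmgn5 with them, gave 0 falls at knockdown against 1. With the replicate block 0 genes rose at knockdown; it changed no member's call and ended those of Me1 (adjusted p = 0.0557) and Slc25a28 (0.0593). All 9 same-numbered pairs had positive r of deviations (0.009 to 0.285), and 7 of 9 arrays correlated best with their own number, a hint from the data of shared structure that the labels do not state. Leaving out 1 array gave 178 to 586 rises and 132 to 652 falls over time, 0 to 1 rises and 0 to 2 falls at knockdown, and 1 to 3 rises and 3 to 10 falls among pathway genes. The Hmgn5 difference stayed between -1.24 and -1.18, with adjusted p of 0.000209 to 0.0558. The cause of these shifts was not tested where not stated. The values carry no detection call, so how far dim genes such as Mt4 and Hmgn5 are above background is unknown.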
